A study of Mus musculus with 28 samples.

Results

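The fragments described here are the restriction fragments joined to the Gata6 promoter that lie on chromosomes other than chromosome 18, where Gata6 itself is. All such fragments with at least 1 read were taken from 5 libraries, after leaving out the region on chromosome 8 that was the source of the inserted Sox1 enhancer sequence. They numbered 39640, out of 99194 distinct fragments of any position in the 13 libraries of the series analysed here. The assay, 4C-seq, maps the contacts of 1 chosen fragment, the viewpoint: crosslinked chromatin is cut with NlaIII, religated, cut again with DpnII and amplified outward from the viewpoint. All cells came from E14Tg2a, a male line of mouse embryonic stem cells (ESC), or were anterior neural progenitor cells (AntNPC) obtained from it by differentiation to day 5 in medium without serum or LIF and with the WNT inhibitor Xav939. The 4 AntNPC libraries were labelled wild type (WT), or knock-in near Gata6 of a part of the Sox1 poised enhancer: its transcription factor binding sites (TFBS), its CpG island (CGI), or both (TFBS+CGI). The fifth library was labelled as day 0 ESC with the CGI insert and as 2i+LIF ESC, while the growth protocol names serum and LIF. It was labelled with a viewpoint at the insertion, but its tallest fragment was the promoter viewpoint fragment chr18:11053305-11053963 of the other 4 libraries, with 83.1% of its reads, so cell state and labelled viewpoint cannot be told apart in what follows. Each condition was 1 library, and the labels do not say whether a knock-in line was 1 clone. No condition therefore has a replicate, and no test was made. All intervals are 95% binomial or Poisson intervals that cover counting error only, since PCR reads were counted without molecular identifiers. They are exact, except for the ESC to AntNPC CGI ratios of X coverage, gene density and fragments at equal depth, which are approximate.

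Gata6 encodes a zinc-finger transcription factor of endoderm and heart development that is kept off in pluripotent and neural cells. Poised enhancers are distal elements bound by Polycomb proteins in ESC, and many lie next to CpG islands, stretches rich in CG dinucleotides. Ligations between chromosomes form the far tail of a 4C profile. They mix contacts of neighbouring chromosome territories, in which gene-rich active chromatin tends to lie together, with random ligation, so that single fragments carry little information and gene content, chromosome and recurrence are the usual summaries.

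Promoter windows here run from 250 bases before to 50 bases after a RefSeq gene start (GRCm38.p6, the assembly of mm10). In 4 of them, a fragment with at least 100 reads in some library, called tall here, covered at least 100 bases and had at least 10 reads in 2 or more AntNPC libraries. They are shown with 2 promoters of developmental regulators that were tall in 1 library, because these sequences show what a joined fragment is: a stretch that ends at NlaIII sites (CATG). The 250 bases before the start are given 5′ to 3′ on the strand of the gene. Capitals mark the bases inside the joined fragment, and lower case marks the neighbouring fragments and the CATG itself.
G6pc2: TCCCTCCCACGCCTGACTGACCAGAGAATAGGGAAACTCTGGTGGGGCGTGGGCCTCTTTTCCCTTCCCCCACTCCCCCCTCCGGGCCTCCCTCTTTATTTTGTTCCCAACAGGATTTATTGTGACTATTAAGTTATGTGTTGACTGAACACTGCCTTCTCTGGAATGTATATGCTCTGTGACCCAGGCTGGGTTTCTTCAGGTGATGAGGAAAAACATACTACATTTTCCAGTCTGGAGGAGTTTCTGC
Ptgs1: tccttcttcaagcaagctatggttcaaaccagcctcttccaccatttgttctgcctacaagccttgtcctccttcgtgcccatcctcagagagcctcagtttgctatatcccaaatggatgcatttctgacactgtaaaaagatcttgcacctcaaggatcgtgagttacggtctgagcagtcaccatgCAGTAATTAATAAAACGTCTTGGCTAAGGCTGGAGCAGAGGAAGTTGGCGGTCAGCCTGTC
Olfr332: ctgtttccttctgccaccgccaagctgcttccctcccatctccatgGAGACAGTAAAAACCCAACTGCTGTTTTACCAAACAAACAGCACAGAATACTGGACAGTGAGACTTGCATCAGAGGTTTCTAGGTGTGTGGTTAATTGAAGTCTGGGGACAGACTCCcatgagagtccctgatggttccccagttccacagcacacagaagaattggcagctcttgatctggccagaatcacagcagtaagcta
Fxyd1: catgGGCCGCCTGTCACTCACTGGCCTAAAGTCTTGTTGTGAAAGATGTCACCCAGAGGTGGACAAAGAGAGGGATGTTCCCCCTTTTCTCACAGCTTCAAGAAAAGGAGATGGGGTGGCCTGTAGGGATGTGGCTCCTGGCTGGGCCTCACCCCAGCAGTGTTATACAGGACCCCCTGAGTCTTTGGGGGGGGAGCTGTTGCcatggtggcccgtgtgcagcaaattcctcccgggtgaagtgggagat
Hoxd12: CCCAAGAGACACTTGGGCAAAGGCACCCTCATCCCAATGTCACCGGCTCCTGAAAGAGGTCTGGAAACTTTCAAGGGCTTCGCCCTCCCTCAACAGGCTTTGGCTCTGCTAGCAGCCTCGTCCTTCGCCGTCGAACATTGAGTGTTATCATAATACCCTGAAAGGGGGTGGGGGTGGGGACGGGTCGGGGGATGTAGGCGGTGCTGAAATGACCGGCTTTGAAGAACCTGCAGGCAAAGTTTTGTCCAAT
Pou4f2: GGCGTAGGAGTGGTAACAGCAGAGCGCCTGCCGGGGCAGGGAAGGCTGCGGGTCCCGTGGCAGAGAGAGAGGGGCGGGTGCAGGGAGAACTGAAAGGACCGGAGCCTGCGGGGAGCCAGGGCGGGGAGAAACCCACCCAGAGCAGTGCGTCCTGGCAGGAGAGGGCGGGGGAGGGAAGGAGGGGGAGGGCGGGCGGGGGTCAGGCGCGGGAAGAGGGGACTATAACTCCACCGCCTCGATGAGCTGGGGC

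The G6pc2 window, chr2:69210823-69211072 on the plus strand, belongs to the islet glucose-6-phosphatase catalytic subunit, and its fragment had 17 reads in WT, 53 in TFBS, 64 in CGI, 190 in TFBS+CGI and 2 in ESC. This was the most evenly recurring of the 6. The Ptgs1 window, chr2:36230176-36230425 on the plus strand, belongs to cyclooxygenase 1, and its fragment had 472 reads in WT, 9 in TFBS, 1 in CGI, 317 in TFBS+CGI and 0 in ESC. The Olfr332 window of an olfactory receptor gene, chr11:58492500-58492749 on the minus strand, had 302, 1, 1, 143 and 0 reads in the same order. The Fxyd1 window, chr7:31054854-31055103 on the minus strand, belongs to phospholemman, a regulator of the sodium pump, and had 114, 0, 34, 2 and 0 reads. These last 3 were high in a pair of AntNPC libraries and below 10 reads in the others. The Hoxd12 window, chr2:74674763-74675012 on the plus strand, was high in CGI alone, with 436 reads against 0 in WT, 1 in TFBS, 2 in TFBS+CGI and 0 in ESC. The Pou4f2 window, chr8:78436648-78436897 on the minus strand, is that of a POU-domain factor of retinal neurons and had 149 reads in WT and 0 in the other 4 libraries. None of these 6 fragments had a read in the 8 libraries of other viewpoints. The motif GATAA, searched on both strands, was in 1 of the 6 printed windows (Hoxd12) and in 22.6% of all 250-base upstream windows, and CATG was in 54.0% of them. In all, 20 windows of 18 genes were covered over at least 100 bases by a tall fragment, 16 of them with at least 10 reads in no more than 1 AntNPC library. Where fragment ends fell inside a promoter window, 772 of 772 were flanked by CATG.

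Off-chromosome ligation made up a small share of all reads, and a large share of those outside the viewpoint. Off-chromosome reads were 391992 of 6874974 in WT, or 5.70% (5.68% to 5.72%). They were 8.79% in TFBS, 14.8% in CGI, 4.84% in TFBS+CGI and 5.12% (5.07% to 5.16%) in ESC, from totals of 3000576, 2523331, 7429563 and 1023252 reads. The CGI library was the highest and the 2 deepest libraries, WT and TFBS+CGI, were among the lowest. With the viewpoint fragment and 10 kb on each side left out of the denominator, the shares were 67.4% in WT, 48.9% in TFBS, 77.8% in CGI, 62.4% in TFBS+CGI and 36.8% in ESC. On this denominator ESC was the lowest of the 5, and CGI remained the highest.

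Covered fragments numbered 9760 in WT, 14168 in TFBS, 12177 in CGI, 12758 in TFBS+CGI and 3991 in ESC. They were 82.4%, 77.3%, 87.8%, 83.5% and 61.1% of all fragments covered in those libraries. At a common 50000 off-chromosome reads, the expected numbers were 4617 in WT, 7468 in TFBS, 6209 in CGI, 5636 in TFBS+CGI and 3920 in ESC. TFBS had the most and ESC the fewest at equal depth as well as in all. Reads were uneven: 37.8% of the WT fragments and 39.4% of the ESC fragments had 1 read, and the median was 3 reads in WT and 2 in ESC. Fragments with at least 100 reads were 751 in WT, 687 in TFBS, 1182 in CGI, 815 in TFBS+CGI and 84 in ESC. They held 75.0% of the off-chromosome reads in WT, 44.4% in TFBS, 65.2% in CGI, 71.1% in TFBS+CGI and 20.5% in ESC. The 10 tallest fragments alone held 13.7% in WT and 9.32% in TFBS+CGI, but 2.95% in TFBS, 1.85% in CGI and 4.02% in ESC.

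Every chromosome was reached, and the autosomes differed little from one another. Covered fragments per Mb, divided by the autosomal mean of the library, ran over the 18 autosomes from 0.787 (chromosome 3) to 1.18 (chromosome 4) in WT and from 0.816 (chromosome 3) to 1.18 (chromosome 11) in TFBS. They ran from 0.831 (chromosome 3) to 1.25 (chromosome 14) in CGI, from 0.865 (chromosome 1) to 1.19 (chromosome 11) in TFBS+CGI, and from 0.886 (chromosome 5) to 1.34 (chromosome 14) in ESC. Chromosome 11, which is gene-dense with 13.2 protein-coding genes per Mb, had 4.55 fragments per Mb in WT, 6.58 in TFBS, 5.60 in CGI, 6.03 in TFBS+CGI and 1.62 in ESC. Chromosome 3, with 6.15 genes per Mb, had 3.04, 4.56, 4.00, 4.42 and 1.43 in the same order. Across the 18 autosomes, the density relative to the mean followed genes per Mb with a Pearson correlation of 0.69 in WT, 0.72 in TFBS, 0.31 in CGI, 0.60 in TFBS+CGI and -0.02 in ESC. Each point is 1 chromosome of 1 library, so these values are descriptions. Near the start of chromosome 14, 5 stretches of 1 Mb hold many duplicated genes, so the place of fragments there is uncertain. These stretches held 163 of the 750 chromosome 14 fragments in CGI and 77 of 262 in ESC. The counts were 30 of 456 in WT, 189 of 801 in TFBS and 77 of 648 in TFBS+CGI. The chromosome 14 maxima and the correlations include these stretches, and values without them were not calculated.

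**Figure D1:**
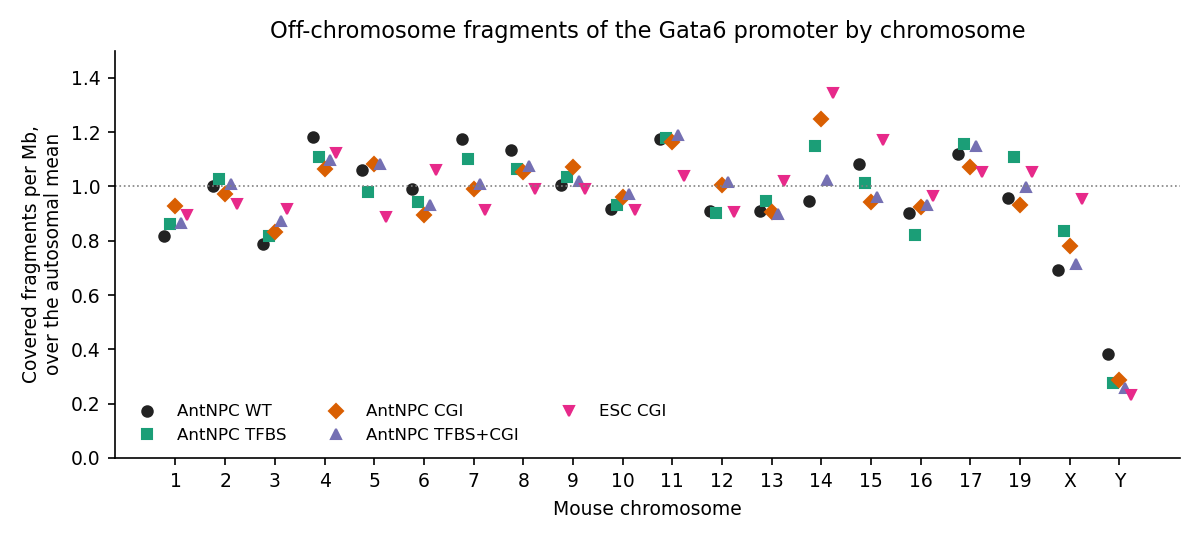
Covered off-chromosome fragments per Mb of each mouse chromosome, divided by the mean over the autosomes of the same library (dotted line at 1), for the 4 AntNPC libraries and the ESC CGI library. Autosomes lie between 0.787 and 1.34, X between 0.693 and 0.955, and Y between 0.232 and 0.381.

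The X chromosome was covered less than the autosomes in the 4 AntNPC libraries, while in ESC the interval included 1, and the values depended on the height of the fragments. E14Tg2a cells are male, so X and Y are each present in 1 copy. The density on X was 0.693 of the autosomal mean in WT (0.629 to 0.761, 458 fragments), 0.837 in TFBS (0.778 to 0.899), 0.779 in CGI (0.718 to 0.844), 0.714 in TFBS+CGI (0.658 to 0.774) and 0.955 in ESC (0.838 to 1.08, 255 fragments). The ESC library lay above the AntNPC libraries on this count. Among fragments with at least 10 reads the order was lost: X was at 0.477 in WT (0.389 to 0.580), 0.580 in TFBS, 0.494 in CGI, 0.593 in TFBS+CGI and 0.516 in ESC (0.361 to 0.717, 37 fragments). The Y chromosome was at 0.381 in WT, 0.274 in TFBS, 0.286 in CGI, 0.256 in TFBS+CGI and 0.232 in ESC.

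By reads, single fragments could carry a chromosome. In WT, chromosome 13 held 9.60% of the off-chromosome reads but 4.34% of the fragments, and 1 fragment, chr13:32586986-32588129, held 38.8% of the reads of that chromosome. It lies 113 kb from Mylk4, a myosin light chain kinase gene, and had 14597 reads in WT, 63 in TFBS, 0 in CGI, 4 in TFBS+CGI and 2 in ESC. In TFBS+CGI, chromosome 5 held 9.95% of the reads and 6.52% of the fragments, and 42.7% of its reads lay on chr5:8571194-8571891. That fragment lies inside the overlapping spans of Abcb1a, a drug efflux pump, and Rundc3b. It had 6702 reads in WT, 1493 in TFBS, 236 in CGI, 15279 in TFBS+CGI and 259 in ESC, and none at other viewpoints, so it was tall in all 5 Gata6 libraries. In TFBS the leading chromosome by reads, chromosome 2, held 7.38% of the reads and 7.38% of the fragments, with no such fragment.

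Along the chromosomes, 2584 bins of 1 Mb were counted. Covered bins were 94.0% in WT, 97.9% in TFBS, 97.1% in CGI, 97.1% in TFBS+CGI and 74.4% in ESC, and 1798 bins were covered in all 5 libraries and 9 in none. The median bin had 3, 5, 4, 4 and 1 fragments in the same order. The variance of the counts over bins was 2.04 times their mean in WT, 2.16 in TFBS, 2.18 in CGI, 2.01 in TFBS+CGI and 1.87 in ESC. The 258 fullest bins held between 22.5% (TFBS) and 30.9% (ESC) of the fragments. Bin counts of 2 libraries had Pearson correlations from 0.27 (WT with ESC) to 0.57 (CGI with TFBS+CGI) over 2493 bins without Y, values that share gene density and the mappable sequence of each bin.

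Coverage rose with gene content. In the 787 bins with at most 2 protein-coding genes, WT had 2.79 fragments per bin, against 5.62 in the 671 bins with at least 11 genes, a ratio of 2.01 (1.91 to 2.12). The ratio was 1.69 (1.61 to 1.76) in TFBS, 1.57 (1.50 to 1.64) in CGI, 1.75 (1.67 to 1.83) in TFBS+CGI and 1.54 (1.42 to 1.68) in ESC, where 1.28 and 1.97 fragments per bin were counted. All 5 ratios were above 1. The 8 libraries of other viewpoints were all labelled 2i+LIF ESC. Those of Gria1 were WT or carried the TFBS, CGI or TFBS+CGI insert in the Gria1 domain, and those of the Six2 promoter and PE Six3 were WT or del36, a deletion of the boundary between both genes. Viewpoint can therefore not be told apart from cell state for the AntNPC libraries, nor from genotype where inserts or deletions differ. The Six2 promoter libraries gave 2.57 and 2.23, the PE Six3 enhancer libraries 1.18 and 1.70, and the 4 Gria1 libraries 0.748 to 1.08. With fragments of at least 10 reads only, the ratio was 3.18 (2.88 to 3.52) in WT and 2.81 (2.55 to 3.10) in TFBS+CGI, but 1.76 in TFBS, 1.65 in CGI and 1.57 (1.33 to 1.86) in ESC. On these fragments WT and TFBS+CGI stood above the other 3 Gata6 libraries, with intervals that did not overlap theirs. Such high values were not limited to Gata6. The Six2 promoter libraries gave 3.30 (WT) and 3.03 (del36) on such fragments, and the PE Six3 libraries 2.45 (WT) and 2.04 (del36). The Gria1 libraries gave 1.08 to 1.33.

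**Figure D2:**
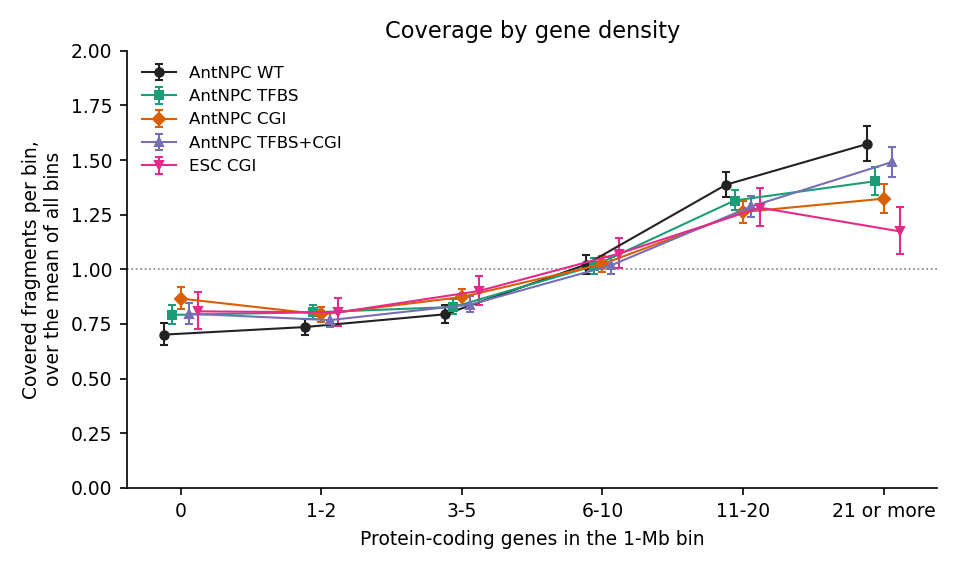
Mean number of covered fragments per 1-Mb bin, divided by the mean over all bins of the library, for bins grouped by their number of protein-coding genes; bars are exact 95% Poisson intervals (counting error only). Bins without genes lie at or below 0.866 in all 5 libraries. In bins with 21 or more genes, WT reaches 1.57 and ESC CGI 1.17.

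In bins with 21 or more genes (247 bins), coverage over the mean of all bins was 1.57 in WT, 1.40 in TFBS, 1.32 in CGI, 1.49 in TFBS+CGI and 1.17 in ESC. In ESC this was below the 1.28 of bins with 11 to 20 genes, whereas the AntNPC libraries were highest in the fullest class. Bins that a library missed held fewer genes on average than those covered. The 115 missed by WT had a mean of 4.72 genes against 8.61, and the 595 missed by ESC had 6.94 against 8.89, a smaller difference. At the scale of the fragment, 43.1% (42.1% to 44.1%) of the WT fragments, 40.3% of TFBS, 39.7% of CGI, 42.5% of TFBS+CGI and 38.2% (36.7% to 39.8%) of ESC fragments overlapped a protein-coding gene span. Gene spans take up 38.0% of the full extent of these chromosomes, Y included, a value that the ESC interval held. That base was not limited to sequence in which fragments can be placed, and any overlap with a gene counted. It is therefore a rough comparison only. Fragments touching a promoter window were 159 in WT, or 1.63% (1.39% to 1.90%), 1.12% in TFBS, 1.03% in CGI, 1.21% in TFBS+CGI and 1.03% (0.738% to 1.39%) in ESC. The promoters touched had a median of 7 CG dinucleotides in their 300 bases in WT, 8 in TFBS, 7 in CGI, 6 in TFBS+CGI and 5.5 in ESC, against 7 over all 32851 windows.

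Of the 10 bins with the most fragments, scaled by library and summed over AntNPC, 5 lay on chromosome 14 between 3 and 20 Mb. They hold families of recently duplicated genes known by model numbers (Gm3115, Gm8108, Gm3476 and others). The bin from 4 to 5 Mb had 10 fragments in WT, 49 in TFBS, 36 in CGI, 16 in TFBS+CGI and 12 in ESC, and up to 33 in a Gria1 library. The bins from 3 to 8 Mb together held 0.307% of the fragments in WT but 1.33% in TFBS, 1.34% in CGI, 0.604% in TFBS+CGI and 1.93% in ESC. Near-identical copies share reads, so the place of a fragment inside such families is uncertain. A defensin gene bin, chromosome 8 from 20 to 21 Mb (Defb33), also holds gene copies, and had 19, 15, 25, 20 and 11 fragments.

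The other 4 bins were on chromosomes 8, 17 and 6. Chromosome 8 from 120 to 121 Mb, with Irf8, a factor of myeloid cells, Cox4i1 and Gse1 among 11 genes, had 25, 23, 15 and 18 fragments in the AntNPC libraries, in the order above, and 5 in ESC. Over the mean bin of each library that was 6.62, 4.19, 3.18 and 3.65 in AntNPC and 3.24 in ESC, which thus lay within the AntNPC range. Chromosome 17 from 56 to 57 Mb, with 41 genes such as the chromatin assembly subunit Chaf1a, had 15, 14, 16 and 22, and 1 in ESC, or 2.55 to 4.46 over the mean bin in AntNPC and 0.647 in ESC. Chromosome 8 from 122 to 123 Mb, with the GATA cofactor Zfpm1 and the mechanosensitive channel Piezo1 among 21 genes, had 17, 14, 11 and 23, and 3 in ESC, or 2.33 to 4.66 over the mean bin in AntNPC and 1.94 in ESC. The Six2 promoter libraries had 9 to 21 fragments in these 3 bins. Chromosome 6 from 47 to 48 Mb has 14 genes, among them Cul1, Ezh2, zinc-finger genes and 6 neighbouring genes known by model numbers (Gm40369, Gm40363 and others). It had 28 fragments in WT, 20 in TFBS, 13 in each of the CGI and TFBS+CGI libraries, and 31 in ESC, the highest bin of that library, or 2.63 to 7.41 over the mean bin in AntNPC and 20.1 in ESC. In ESC, 30 of the 31 lay in 1 stretch of 150 kb and had 129 reads in all. Whether copied sequence shares reads in that stretch was not tested, so its place is uncertain. The Six2 promoter WT library had 42 fragments in this bin, so its coverage was not limited to the Gata6 promoter.

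Most fragments were seen in 1 library: 29739 of the 39640 (75.0%) were covered once, 7588 in 2 libraries, 1499 in 3, 628 in 4 and 186 in all 5. Of the fragments of WT, 41.9% (40.9% to 42.9%) were covered in at least 1 other Gata6 library, and 35.8% of TFBS, 42.7% of CGI, 52.4% of TFBS+CGI and 52% of ESC. By contrast, 3.51% of the WT fragments and 4.03% of those of ESC were covered in any of the 8 libraries of other viewpoints, and in single pairs the share was between 0.0869% and 1.71%. The same fragment thus recurred among the Gata6 libraries far more often than with other viewpoints.

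Recurrence was not even among the Gata6 libraries. WT and TFBS shared 3381 fragments, which is 34.6% of WT and 23.9% of TFBS. CGI and TFBS+CGI shared 4519, or 37.1% and 35.4%. TFBS+CGI and ESC shared 1741, or 13.6% and 43.6%. WT and CGI shared 1019, 10.4% and 8.37%, and WT and ESC 399, 4.09% and 10.0%. In the 3 pairs that shared most, the shared fragments were lopsided. Reads differed at least 10-fold in 67.8% of those of WT and TFBS, in 71.3% of CGI and TFBS+CGI, and in 81.4% of TFBS+CGI and ESC. This compares with 27.8% in WT and CGI, 26.7% in WT and TFBS+CGI, and 16.9% in CGI and ESC. Without TFBS, 18.7% of the WT fragments recurred in another Gata6 library, and without WT 19.8% of those of TFBS. Without TFBS+CGI, 18.2% of the CGI fragments and 32.2% of the ESC fragments did, and without CGI 29.0% of those of TFBS+CGI.

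In those pairs, tall fragments were seen again most often. In other pairs the share did not always rise with height: of the ESC fragments with 1 read 21.1% were covered in CGI, and of those with 10 to 99 reads 5.37%. Of the 1182 CGI fragments with at least 100 reads, 1079 (91.3%) were covered in TFBS+CGI, at a median of 3 reads, but 89 in WT, at a median of 193. Of the 751 such fragments of WT, 617 (82.2%) were covered in TFBS at a median of 4 reads, 280 in TFBS+CGI at 47.5, 217 in CGI at 34 and 159 in ESC at 2. Of the 815 of TFBS+CGI, 658 were covered in CGI at a median of 3 reads and 584 in ESC at 2. Of the 84 of ESC, 63 were covered in TFBS+CGI at a median of 2 reads, and 4 in CGI. Among the WT fragments with 1 read, 929 of 3693 were covered in TFBS, there at a median of 42 reads. Tall fragments of 1 library thus reappeared in a particular partner at medians of 2 to 4 reads, in both directions. At other viewpoints few did, 13 of the 751 in WT. The labels do not say which libraries were amplified or sequenced together, and the part of carry-over between libraries in these low counts was not tested.

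**Figure D3:**
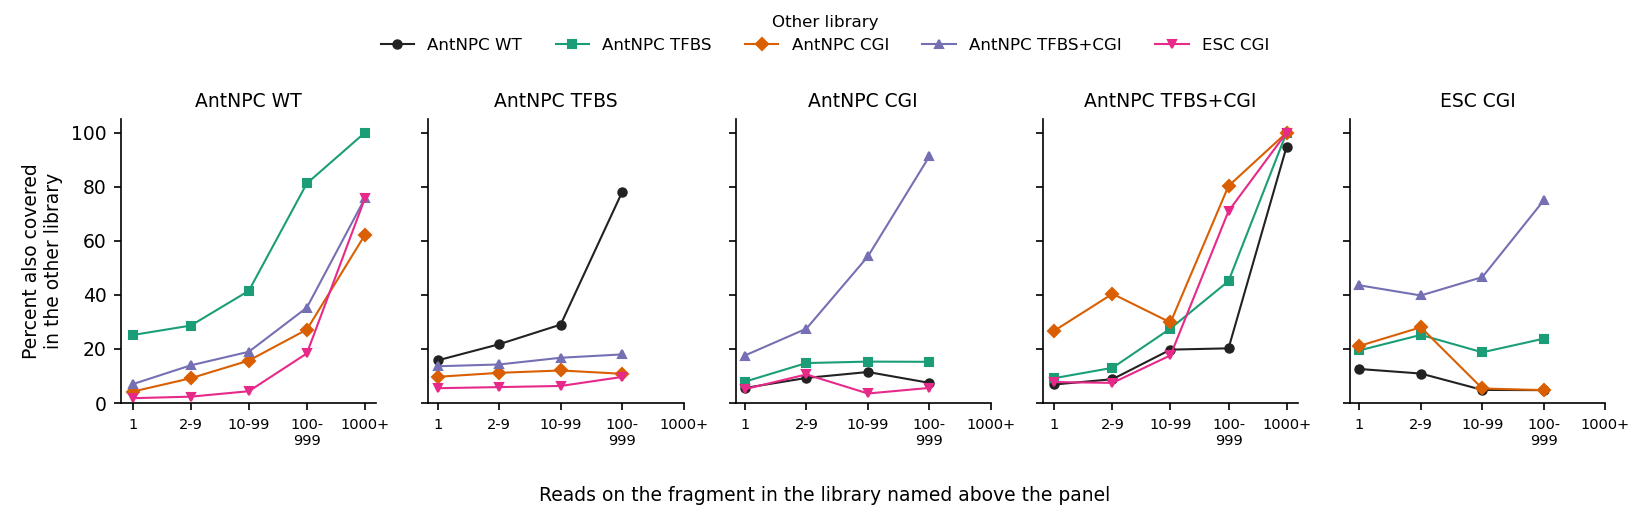
Percent of the fragments of the library named above each panel that were covered in each other Gata6 library, by the number of reads on the fragment in the first library (classes with under 10 fragments are left out). The line for WT in TFBS climbs from 25.2% at 1 read to 81.2% in the fourth class, while the line for WT in CGI goes from 4.22% to 27.2%.

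A second kind of recurrence was the same fragment with 10 reads or more in every AntNPC library. In the 4 AntNPC libraries 163 fragments had at least 10 reads in each, whereas 12444 reached 10 reads in 1 of them, 645 in 2 and 178 in 3. The lowest of their 4 AntNPC counts was 10 at the least and 26 at the median, and a further 67 fragments had between 5 and 9 reads in their lowest library. By this choice they are high in AntNPC. They held 17.9% of the off-chromosome reads of WT, 6.82% of TFBS, 5.32% of CGI and 18.7% of TFBS+CGI. The ESC library, which took no part in the choice, had 958 reads on them, or 1.83% (1.72% to 1.95%). It covered 84 of the 163 and had at least 10 reads on 12. A lower level in a library outside the choice follows in part from that choice. At other viewpoints, 6 of the 163 had a read.

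Each AntNPC library was therefore left out of the choice once, though the choice still rested on the other AntNPC libraries. The fragments on which the left-out library reached 10 reads are the same 163 each time by construction. The rounds are therefore not separate results. Each choice also kept the library with which the left-out one shared many lopsided fragments (WT with TFBS, CGI with TFBS+CGI), and carry-over was not tested. Chosen on TFBS, CGI and TFBS+CGI alone, 203 fragments had at least 10 reads in each, and WT, not used, had at least 10 on 163 of them (80.3%), at a median of 130 reads. ESC had at least 10 on 16 of the same 203 (7.88%). With TFBS left out, TFBS reached 10 reads on 163 of 218 and ESC on 12. With CGI left out, CGI reached 10 on 163 of 218 and ESC on 13, and with TFBS+CGI left out, TFBS+CGI did on 163 of 191 and ESC on 12. Scaled down to the ESC depth, the library left out still reached 10 reads on 120 (WT), 82 (TFBS), 70 (CGI) and 106 (TFBS+CGI). The share of off-chromosome reads on such fragments was 17.9% (WT), 6.89% (TFBS), 5.36% (CGI) and 18.8% (TFBS+CGI) when not used for the choice, and between 1.85% and 2.46% in ESC. Levels were within 10-fold of one another in the 4 AntNPC libraries for 117 of the 163. On those 117, ESC had 0.879% of its reads, against 4.12% (CGI) to 8.38% (WT) in AntNPC. All 4 AntNPC libraries took part in choosing the 117, so a lower level in ESC follows in part from that choice. The 163 levels had Spearman correlations from 0.43 (WT with CGI) to 0.60 (WT with TFBS) between AntNPC libraries.

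**Figure D4:**
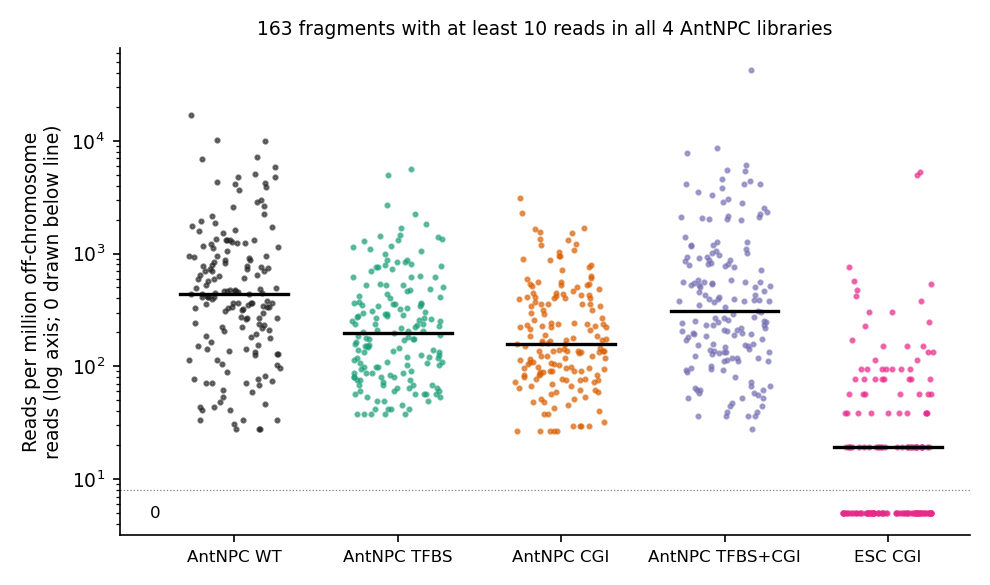
RPM of off-chromosome reads (log axis) on the 163 fragments with at least 10 reads in all 4 AntNPC libraries, 1 point per fragment and library; black lines are medians and fragments with 0 reads are drawn below the dotted line. The AntNPC points are high by the choice of fragments; in ESC CGI, which was not used, 79 fragments are at 0 and the median is 1 read.

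The recurring fragments lay on 19 chromosomes, most on chromosome 7 (19), chromosome 4 (13) and chromosome 11 (12), with 2 on X and none on Y. Of the 163, 98 (60.1%) overlapped a protein-coding gene, against 46.1% of the fragments with at least 10 reads in 1 AntNPC library and 39.5% of all covered in AntNPC. They were also longer, at a median of 397 bp against 243 and 273 bp. The tallest in its lowest library was chr11:10231885-10232171, 547 kb from Abca13, with 638 reads in WT, 593 in TFBS, 405 in CGI, 1994 in TFBS+CGI and 12 in ESC. Next came chr1:115584330-115584583, 100 kb from Cntnap5a, a neuronal adhesion gene, with 1886, 385, 1160, 1188 and 9 reads. The fragment chr13:44516297-44517085, 214 kb from Jarid2, a subunit of Polycomb repressive complex 2, had 2687, 380, 861, 809 and 0 reads. Inside Wnt3, which encodes a secreted WNT ligand, chr11:103788590-103788755 had 2303, 1315, 334 and 1264 reads against 1 in ESC. Their height in AntNPC follows from the choice.

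Further examples, chosen after their values were seen, lay in or near known genes. Cacna2d1, an auxiliary subunit of voltage-gated calcium channels, held chr5:16087347-16088109, with 1872 reads in WT, 718 in TFBS, 224 in CGI, 3104 in TFBS+CGI and 25 in ESC. Baiap2, an adaptor of the actin cytoskeleton at synapses, held chr11:119977207-119977426, with 522, 205, 172, 1478 and 16 reads. A fragment 25.0 kb from Epha4, an axon guidance receptor, had 1011, 143, 154, 722 and 4 reads. Vegfa, the vascular growth factor gene, held a fragment with 850, 185, 164, 194 and 1 reads. On X, the fragment 0.484 kb from Cdx4, a caudal homeobox gene, had 175, 446, 34, 209 and 4 reads. The order of the AntNPC libraries differed from fragment to fragment.

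The set also held fragments whose place is uncertain. On chromosome 7, 7 of the 19 lay nearest to Vmn2r genes, a large family of vomeronasal receptors, and 3 of these had the same length of 329 bp. Their reads were alike: 170, 31, 51 and 48 in WT, TFBS, CGI and TFBS+CGI near Vmn2r34, 163, 26, 46 and 49 near Vmn2r45, and 178, 19, 52 and 50 near Vmn2r37. All 7 were at 0 in ESC. Copies of 1 sequence would share reads, so whether these 7 are separate contacts is uncertain.

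At least 10 reads in all 5 libraries, ESC included, were found on 12 fragments. The first was chr10:36014863-36015530, 303 kb from Amd2, with 417 reads in WT, 291 in TFBS, 488 in CGI, 1571 in TFBS+CGI and 278 in ESC. It also had 7088 reads in libraries of other viewpoints, up to 5429 in 1 Gria1 library, so it was not particular to Gata6. The others included the fragment in Abcb1a and Rundc3b given above. Utrn, which encodes the dystrophin relative utrophin, held chr10:12464130-12464939 with 1514, 211, 10, 1640 and 40 reads. Nphp4, a ciliary gene, held chr4:152481566-152481748 with 127, 68, 167, 68 and 22 reads.

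The tallest fragments of ESC were mostly its own. The first, chr3:45643595-45643654, lies 209 kb from Pcdh10, a protocadherin gene, and had 289 reads in ESC, and 0, 2, 0 and 3 in the AntNPC libraries. A fragment inside Kcnip1, chr11:33672233-33672775, had 227 reads in ESC and 0, 0, 0 and 2 in AntNPC. One lying 126 kb from Emx2, a cortical homeobox gene, chr19:59590941-59591140, had 165 reads in ESC and none in the 4 AntNPC libraries. The fragment chr2:98662324-98662509, 1031 kb from Lrrc4c, had 209 reads in ESC and 8, 120, 389 and 62 in AntNPC and 3132 reads at other viewpoints. Over the 5 libraries, the 10 tallest of each made 42 distinct fragments, of which 20 overlapped a gene, 19 were covered in all 5 and 4 at another viewpoint. Tall fragments of 1 library alone were found in AntNPC too. In TFBS, chr11:70647419-70647733 at Rnf167 and Slc25a11 had 1262 reads, against 29 in WT, 31 in TFBS+CGI, 2 in CGI and 0 in ESC. In CGI, fragments in Slc13a4, Itgax, Zfp444 and Acoxl had 579 to 637 reads, 0 in WT and TFBS, and 5 to 7 in TFBS+CGI. The one in Zfp444 also had 4019 reads at other viewpoints.

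Away from the exact fragment, the contrast between Gata6 libraries and other viewpoints was smaller. Taking pairs of libraries and only the fragments not shared, the share with a fragment of the other library within 10 kb was 10.0% per 10000 fragments of the other library (median of 20 pairs, 9.25% to 11.3%) among the Gata6 libraries. It was 8.79% (7.50% to 9.57%) with the Six2 promoter, 7.67% (7.23% to 10.1%) with PE Six3 and 7.04% (4.64% to 8.04%) with Gria1. The range among Gata6 libraries lay wholly above that of Gria1 and overlapped those of the Six2 promoter and PE Six3.

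The ESC and AntNPC libraries with the CGI insert differed more in amount than in gene density or in the shares of chromosomes. They differed on single fragments as well. The recurring fragments chosen without CGI held 5.36% of the off-chromosome reads in CGI and 1.95% in ESC. That choice rested on the other AntNPC libraries, so a lower level in ESC follows in part from it. The off-chromosome share of ESC was 0.346 times that of AntNPC CGI (0.343 to 0.349), but 0.897 times that of WT and 1.06 times that of TFBS+CGI, so its direction depended on the AntNPC library. Covered fragments at equal depth were 0.631 times those of CGI (0.606 to 0.657), and between 0.525 and 0.849 times those of the other 3. The gene-density ratio of ESC was 0.984 times that of CGI (0.895 to 1.08) and 0.768 times that of WT. The X to autosome ratio was 1.23 times that of CGI (1.05 to 1.43), and 1.05 times with fragments of at least 10 reads. By share of fragments, ESC lay above all 4 AntNPC libraries on 7 of the 20 chromosomes, below them on 10 and within their range on 3. Chromosome 15 had 4.76% of the ESC fragments against 3.88% to 4.46% in AntNPC, and chromosome 5 had 5.26% against 5.87% to 6.52%. Against CGI, the log2 ratios of these shares were 0.30 (0.05 to 0.54) and -0.31 (-0.53 to -0.08), and over all 20 they ran from -0.31 to 0.30.

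The most different bins rested on few fragments. Among 1841 bins covered in both CGI-insert libraries and by at least 10 fragments over the 5 libraries, chromosome 15 from 80 to 81 Mb had 20 fragments in ESC and 5 in AntNPC CGI, with 7, 14 and 12 in WT, TFBS and TFBS+CGI. Its log2 ratio of shares was 3.61 (2.15 to 5.38), and it holds 15 genes, among them Pdgfb, Rpl3 and the stress-response factor gene Atf4. The other 4 of the 5 highest bins had 3 to 5 fragments in ESC and 1 in CGI. They were those of Sntg1 on chromosome 1, Marcks and Parpbp on chromosome 10, and Isl1 on chromosome 13, and the intervals of the last 2 included 0. At the low end, chromosome 5 from 11 to 12 Mb, a Speer gene cluster, had 1 fragment in ESC and 23 in CGI, but 9, 5 and 2 in WT, TFBS and TFBS+CGI, and a log2 ratio of -2.91 (-8.28 to -0.29). The others had 1 in ESC and 13 to 16 in CGI. They were the bin with Chaf1a on chromosome 17, the bin of Srebf2 on chromosome 15, the bin of Axin1 on chromosome 17, and the bin of Gfra1 on chromosome 19, and their intervals included 0. Of the 143 bins with at least 10 fragments in CGI, 16 had none in ESC. These 143 were chosen for a high count in CGI, and ESC covered 74.4% of all 2584 bins. The fullest of the 16, chromosome 11 from 115 to 116 Mb with the Cd300 receptor genes and Grin2c, had 17 in CGI. It had 2 in WT, 10 in TFBS and 5 in TFBS+CGI, so CGI was the highest AntNPC library there. With 3 fragments set in place of the 0 in ESC, its share was 1.86-fold lower than in CGI. That value leaves out the counting error of the CGI count, so it is not an interval limit.

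Genes of the GATA family, of the germ layers that Gata6 takes part in and of other fixed lists were set against all genes. Over all 21375 protein-coding genes, 22.5% had a covered fragment within 10 kb of their span in WT, 28.3% in TFBS, 25.4% in CGI, 27.4% in TFBS+CGI and 9.34% in ESC, and 52.9% did in at least 1 AntNPC library. Of the 5 other GATA factor genes, Gata5 and Gata3 did (40%, 5.27% to 85.3%), an interval too wide to place them above or below all genes. A fragment 0.022 kb from the span of Gata5, chr2:180335525-180335811, had 56 reads in WT, 0 in TFBS, 12 in CGI, 38 in TFBS+CGI and 1 in ESC, and 1 inside the gene had 104 reads in WT alone. Gata3 held 1 fragment with 35 reads in WT and none elsewhere. Gata1, Gata2 and Gata4 had none in any of the 5 libraries. Of 15 endoderm regulators, 5 were covered in AntNPC (33.3%, 11.8% to 61.6%) and 0 in ESC, and in WT alone 4 of them (26.7%). They were led by Hnf4a, a liver nuclear receptor gene with 97 reads in TFBS+CGI on 2 fragments, and by Foxa2, the pioneer factor gene, with a fragment of 156 reads in WT and 1 in TFBS.

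Of 22 anterior neural regulators, 11 (50%) were covered in AntNPC, 1 of them in WT, 5 in TFBS, 7 in CGI, 6 in TFBS+CGI and 3 in ESC. Fezf1, a forebrain zinc-finger gene, had a fragment of 446 reads in TFBS+CGI, 5 in CGI, 3 in ESC and 0 in WT and TFBS. Near Six3 lay a fragment of 399 reads in TFBS+CGI, 1 in TFBS, 1 in CGI and 2 in ESC, which also had 3776 reads at other viewpoints. Those of Six2 and PE Six3 lie on the same chromosome 17, and the part of carry-over in this fragment was not tested. Of 58 other developmental regulators, 30 (51.7%) were covered in AntNPC. Pax3, a neural crest factor gene, held a fragment of 999 reads in WT, 23 in TFBS, 1 in TFBS+CGI and 0 in CGI, and Pax2 1 of 317 reads in CGI alone. Of 18 pluripotency genes 9 (50%) were covered, with 1 in ESC, and of 22 housekeeping genes 12 (54.5%). Within 10 kb of Dnmt3l, a DNA methylation cofactor gene of pluripotent cells, 3 fragments of 58 bp each had 70 to 79 reads in TFBS and at most 2 elsewhere. Those starting at 78066577 and 78066700 lay nearer to Icosl. Whether copies of 1 sequence share these reads was not tested, so their place is uncertain. Over the 4 AntNPC libraries together, the intervals of these lists hold the 52.9% of all genes, except that of the Hox genes. Gene length was not taken into account.

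The Hox genes, which overlap in their windows and so are not independent, were covered in 10 of 39 in at least 1 AntNPC library (25.6%, 13.0% to 42.1%), below the 52.9% of all genes. In single libraries their intervals held the share of all genes: 23.1% against 22.5% in WT, 23.1% against 28.3% in TFBS, 25.6% against 25.4% in CGI, 20.5% against 27.4% in TFBS+CGI and 5.13% against 9.34% in ESC. With fragments of at least 10 reads it was 25.6% against 29.8%. Most of them lie close together, so the clusters are the clearer unit. The Hoxa cluster had no fragment in any of the 5 libraries. The Hoxb cluster had 1 in each: chr11:96365830-96366997 at Hoxb1, with 76 reads in WT, 49 in TFBS, 10 in CGI, 43 in TFBS+CGI and 0 in ESC, and another, near Hoxb2, with 51 reads in ESC alone. The Hoxb1 fragment was 1 of the 163 of the recurring set. The Hoxd cluster had 3 fragments in WT, 2 in TFBS, 2 in CGI, 2 in TFBS+CGI and 0 in ESC. Beside the Hoxd12 promoter shown above, chr2:74699785-74701394 at Hoxd9 had 3, 76, 176, 5 and 0 reads. The Hoxc cluster had 1, 1, 2, 1 and 0 fragments, the tallest with 160 reads in CGI. None of these Hox fragments had a read in the libraries of other viewpoints. At most 4.03% of the off-chromosome fragments of any Gata6 library did. The ESC library covered the 4 clusters once.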

How the data were processed

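Each library was a 4C-seq sample of 1 condition, and its file lists restriction fragments by start and end with RPM values (reads scaled to the library total), which the authors deposited without a count column. Per the submitters' processing notes, HISAT2 and the mm10 build were used. The version, filters and fragment assignment were not given in the sources used here. Dividing each RPM value by the smallest value of its file gave whole reads for 100% of values (tolerance 0.1), and these reads were used throughout. The source of the Sox1 insert on chromosome 8 was left out. Fragments were counted by chromosome, in 1-Mb bins and by distance to RefSeq protein-coding genes. Intervals are exact 95% binomial or Poisson intervals, with exceptions among the ESC to AntNPC CGI ratios. Those of X coverage and gene density combine the intervals of both libraries on the log scale. That of fragments at equal depth treats expected numbers as counts. No test was made, since there was 1 library per condition.

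The members and gene lists were chosen with earlier results of these data known. Named were the 10 tallest fragments of each library, those covered in all 5, the 10 fullest bins, the 5 bins highest and the 5 lowest in ESC over AntNPC CGI, the GATA and Hox genes, and the highest examples of other lists. Some fragments that this rule names are not reported here. The 163 recurring fragments and the promoters shown were singled out after their values were seen. Of 178 listed genes 176 were measured. Cdx1 and Rax, on chromosome 18, were not. Fragments of other viewpoints were compared after leaving out the viewpoint chromosomes of both libraries. Alternatives were read minimums, wider windows, other denominators and left-out libraries. Functions were tested on simulated data. Python 3.11.15, numpy 2.4.6, pandas 2.3.3, scipy 1.17.1 and matplotlib 3.10.9 were used.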

Additional observations from a re-analysis of the deposited data

How the results depend on the processing

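Of 146 alternative values, 40 stayed within counting error or, for counts, within 1.5 times, and 106 moved. Changes of direction were not counted apart from other moves. The ESC to AntNPC ratio of the off-chromosome share changed direction, from 0.346 with CGI to 1.06 with TFBS+CGI. Values below are in the order WT, TFBS, CGI, TFBS+CGI and ESC. The off-chromosome share was 4.96%, 8.56%, 14.5%, 4.41% and 4.92% without the 10 tallest fragments, 5.50%, 8.08%, 14.2%, 4.56% and 4.49% on fragments with at least 10 reads, and 67.4%, 48.9%, 77.8%, 62.4% and 36.8% without the viewpoint and 10 kb each side. Covered fragments were 6067, 8525, 7908, 7611 and 2418 at 2 reads and 3177, 4128, 4329, 3286 and 1033 at 10. At 10 reads, X over autosomes was 0.477, 0.580, 0.494, 0.593 and 0.516 and the gene-density ratio 3.18, 1.76, 1.65, 2.81 and 1.57. Recurrence in another Gata6 library was 35.4%, 28.5%, 36.8%, 47.3% and 37.1% at 2 reads in both, 59.4%, 52.6%, 58.4%, 66.7% and 67.9% with any fragment within 10 kb, and 87.0%, 80.2%, 92.3%, 94.6% and 82.1% for fragments with at least 100 reads. Leaving out 1 other library, chosen after seeing the data, gave 18.7% to 41.6% for WT, 19.8% to 34.5% for TFBS, 18.2% to 42.4% for CGI, 29.0% to 49.9% for TFBS+CGI and 32.2% to 51.3% for ESC CGI. The ESC to AntNPC ratio was 0.897, 0.582 and 1.06 for the share, 0.849, 0.525 and 0.696 for fragments at equal depth, and 0.768, 0.916 and 0.881 for gene density, with WT, TFBS or TFBS+CGI in place of CGI. At 10 reads the first and second were 0.317 and 0.251, and the X ratio 1.05. Within 50 kb, 86.3% of all genes were covered in AntNPC, 80% of GATA, 93.3% of endoderm, 86.4% of anterior neural, 89.7% of other developmental, 100% of pluripotency, 90.9% of housekeeping and 66.7% of Hox genes. At 10 reads within 10 kb the shares were 29.8% of all, 40% of GATA, 26.7% of endoderm, 31.8% of anterior neural, 36.2% of other developmental, 27.8% of pluripotency, 27.3% of housekeeping and 25.6% of Hox genes. Chosen after seeing the data as well, the recurring set held 19.9%, 7.63%, 6.15%, 20.9% and 2.41% of reads at a minimum of 5, 15.6%, 5.95%, 4.63%, 17.1% and 1.72% at 20 (104 fragments), 8.38%, 4.20%, 4.12%, 7.95% and 0.879% within 10-fold, and 16.6%, 6.03%, 4.94%, 17.8% and 1.29% without fragments seen at other viewpoints. The causes of these shifts were not tested beyond what fewer fragments or libraries give by construction. Depth limits ESC most, with 52342 off-chromosome reads. No paired analysis was possible because each condition was 1 library and the labels give no replicate numbers.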
